A study of Mus musculus with 13 samples.

Results

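The 48 genes described here encode the machinery that copies DNA in S phase. They were chosen by symbol, from knowledge of the replication machinery and with earlier results of these data known. All 48 were found among the 12963 rows of the deposited expression table. RNA-seq libraries were made from sorted T cells of tumors grown from B16-F10, a mouse melanoma line, in Foxp3-EGFP-DTR mice. Cells of these mice that express Foxp3 also make EGFP and a diphtheria toxin receptor, both under control of the endogenous Foxp3 locus, and diphtheria toxin (DTx) therefore kills their regulatory T (Treg) cells. All 5 groups carried this genotype, and all came from tumors of the same line. They were Treg cells of saline-treated mice (Treg PBS, n = 3), conventional CD4 T (Tconv) cells after saline (CD4 PBS, n = 2) or DTx (CD4 DTx, n = 3), and CD8 T cells after saline (CD8 PBS, n = 2) or DTx (CD8 DTx, n = 3). No library of Treg cells from DTx-treated mice was analysed here. The labels do not say which libraries came from the same animal, and they give no age of the mice and no time after DTx. The study asked how Treg cell ablation changes the transcriptomes of Tconv cells in the tumor and how these compare with the Treg cells.

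DNA replication is prepared in G1 phase, when the origin recognition complex (Orc1, Orc6) with Cdc6 and Cdt1 loads the MCM helicase (Mcm2 to Mcm7) onto origins. Helicase activation at the start of S phase adds Cdc45, the GINS complex (Gins1, Gins2) and Mcm10. Single strands are bound by replication protein A (Rpa1, Rpa2), the sliding clamp Pcna is loaded by replication factor C (Rfc2, Rfc3, Rfc4, Rfc5), and synthesis is carried out by the alpha-primase (Pola1, Pola2, Prim1, Prim2), delta (Pold1, Pold2) and epsilon (Pole, Pole2) polymerases. Fen1 and Lig1 process and join Okazaki fragments, and ribonucleotide reductase (Rrm1, Rrm2), Tyms, Tk1 and Dut supply deoxynucleotides. E2f1 and E2f2 are transcription factors that drive many of these genes at the G1/S boundary, where the cyclins Ccne1 and Ccne2 activate Cdk2. Chaf1a and Chaf1b deposit histones behind the fork, and Brca1, Brca2, Clspn, Chek1, Exo1 and Tipin serve the replication checkpoint and repair. Resting T cells sit outside the cycle, and activated T cells turn this program on as they divide.

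Promoter sequence was examined for what the members share. RefSeq windows on GRCm38.p6, from 250 bases before to 50 bases after the annotated start, were found for 39 of the 48 members. No window was found under the symbols Mcm4, Gins1, Gins2, Rfc2, Prim2, Pole, Ccne2, Exo1 and Tipin. The letters of the E2F site, TTTCCCGC, TTTCGCGC, TTTGCCGC or TTTGGCGC on either strand, occurred in the windows of 15 of 39 members (38.5%). They occurred in 4.6% of the 9547 tested genes that had a window and in 2.6% of all 27025 symbols in the RefSeq table. The CCAAT box was present in 56.4% of members and 43.4% of tested genes, TTTGAA in 12.8% and 14.6%, and the GC box GGGCGG in 69.2% and 66.8%. A match is a description of letters and not a measured site. E2F letters occurred in 12 of 31 members with a window that were called in at least 1 of 9 comparisons (38.7%). Among those called in none they occurred in 3 of 8 (37.5%). With 8 genes, these shares cannot show whether the letters go with the calls. In 8 members (Mcm6, Orc1, Mcm7, Brca2, Rfc3, Mcm5, Cdc6 and Pola1) a match lay wholly before the start. The stretches of 4 origin licensing genes that recur in the results are printed 5′ to 3′ on the strand of the gene, with the E2F letters in capitals.
Cdc6: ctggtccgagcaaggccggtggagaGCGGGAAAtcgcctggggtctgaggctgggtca
Orc1: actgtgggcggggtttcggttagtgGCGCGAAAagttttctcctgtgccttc
Mcm5: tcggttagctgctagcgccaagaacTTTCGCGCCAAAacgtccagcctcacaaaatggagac
Mcm6: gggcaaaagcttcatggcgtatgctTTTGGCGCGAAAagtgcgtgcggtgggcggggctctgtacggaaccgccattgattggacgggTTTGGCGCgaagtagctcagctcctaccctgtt
The Cdc6 stretch is chr11:98907988-98908045 on the plus strand, and its match ended 130 bases before the start. The Orc1 stretch is chr4:108579402-108579453 on the plus strand, with 19 bases to the start. The Mcm5 stretch is chr8:75109331-75109392 on the plus strand and holds 2 overlapping matches in 1 capital run, 141 bases from the start. The Mcm6 stretch is chr1:128359720-128359840 on the minus strand and holds 3 matches, of which 2 overlap in the first capital run.

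Values are given as normalized reads, which are reads divided by a size factor per library. Where several follow each other for a group, they stand in the order of the replicate number, 1, 2 and 3 or, for the PBS-treated Tconv groups, 2 and 3. The libraries held between 15947556 and 34140486 reads, so 3 reads, the floor of detection, were 1.98 to 4.10 normalized reads. Foxp3 was at 1178, 1856 and 1896 normalized reads in Treg PBS and at 0 in both CD4 PBS libraries, and it ranged from 0 to 12.1 in the other libraries. Cd8a in the CD4 DTx libraries came to 0.256%, 1.77% and 3.24% of the CD8 DTx mean, and Cd8b1 to 0.437%, 2.68% and 3.86%. A share of CD8 T cells of the larger of each pair would carry 0.954%, 4.37% and 6.84% of the summed member reads in these libraries. Cd4 was at 413 normalized reads in CD8 DTx replicate 1 and at 0 and 40.4 in the others of that group. Summed melanocyte transcripts (4 of 7 listed genes in the table) ranged from 727 to 1197 normalized reads in Treg PBS, 171 to 629 in the PBS-treated Tconv groups and 60.7 to 170.2 in the DTx groups. Erythroid transcripts (4 of 6) ranged from 948 to 6593 in the PBS-treated Tconv groups, with the highest sums in replicate 3 of each, from 1850.3 to 3223 in Treg PBS and from 0 to 1176 in the DTx groups. Myeloid transcripts (8 of 9) ranged from 88.8 to 3978 and B cell transcripts (4 of 5) from 92.6 to 1296 over the 13 libraries. No melanocyte, erythroid or myeloid marker in the table was at 0 throughout a group. The part of these transcripts in the results was not tested.

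As a set, the replication genes were highest in Treg PBS and CD8 DTx, lowest in CD4 PBS, and between these in CD8 PBS and CD4 DTx. The mean of log2(normalized reads + 1) over the 48 genes was 8.25 ± 0.10 in CD4 PBS (SD, n = 2), 9.01 ± 0.38 in CD8 PBS (SD, n = 2), 9.26 ± 0.48 in CD4 DTx (SD, n = 3), 10.38 ± 0.34 in CD8 DTx (SD, n = 3) and 10.31 ± 0.45 in Treg PBS (SD, n = 3). Library by library it was 8.32 and 8.18 in CD4 PBS, 8.71, 9.61 and 9.44 in CD4 DTx, 9.27 and 8.74 in CD8 PBS, 10.31, 10.75 and 10.09 in CD8 DTx and 10.22, 10.80 and 9.91 in Treg PBS. Every Treg PBS and CD8 DTx library lay above all libraries of the other 3 groups, and the CD4 DTx and CD8 PBS ranges overlapped. In reads, the 48 genes took 0.421, 0.603 and 0.353% of the Treg PBS libraries and 0.413, 0.535 and 0.395% of CD8 DTx. Their share was 0.226 and 0.215% in CD4 PBS, 0.290 and 0.244% in CD8 PBS and 0.208, 0.290 and 0.276% in CD4 DTx. On this share, which the most abundant members dominate, CD4 DTx replicate 1 lay below both CD4 PBS libraries. In sorted populations, fewer cells in S phase and less of these transcripts per cell cannot be told apart.

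**Figure D1:**
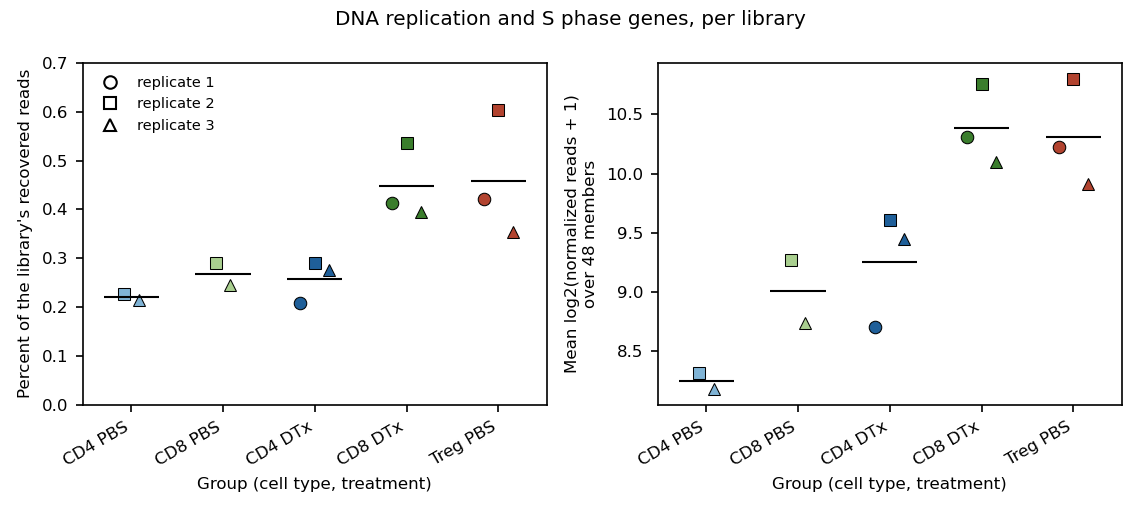
Level of the 48 replication and S phase genes in each library, as the percent of the library's recovered reads (left) and as the mean of log2(normalized reads + 1) over the genes (right, axis not starting at 0). Points are libraries with the replicate number as symbol and lines are group means. The Treg PBS and CD8 DTx libraries sit from 9.91 to 10.80 on the right, above all others, and CD4 PBS is lowest at 8.18 and 8.32.

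The libraries of a group kept much the same order across members, except in CD4 PBS, where replicate 2 was lowest for 21 genes and highest for 27. Replicate 2 held the highest value of its group for 42 of 48 genes in Treg PBS, 44 in CD8 PBS and 38 in CD8 DTx. Replicate 3 held the lowest for 37 genes in Treg PBS, 44 in CD8 PBS and 36 in CD8 DTx. In CD4 DTx the lowest value was in replicate 1 for 36 genes, where Exo1 was at 0 and Pole at 21.5 normalized reads. The members are thus not separate measurements of a group, and outside CD4 PBS a library that is high for 1 member is high for most. By group means, Treg PBS was the highest group for 24 members and CD8 DTx for 19, while CD4 PBS was the lowest for 35. The median member stood at 35.2% of its Treg PBS mean in CD4 PBS, 48% in CD8 PBS, 50.5% in CD4 DTx and 102% in CD8 DTx.

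**Figure D2:**
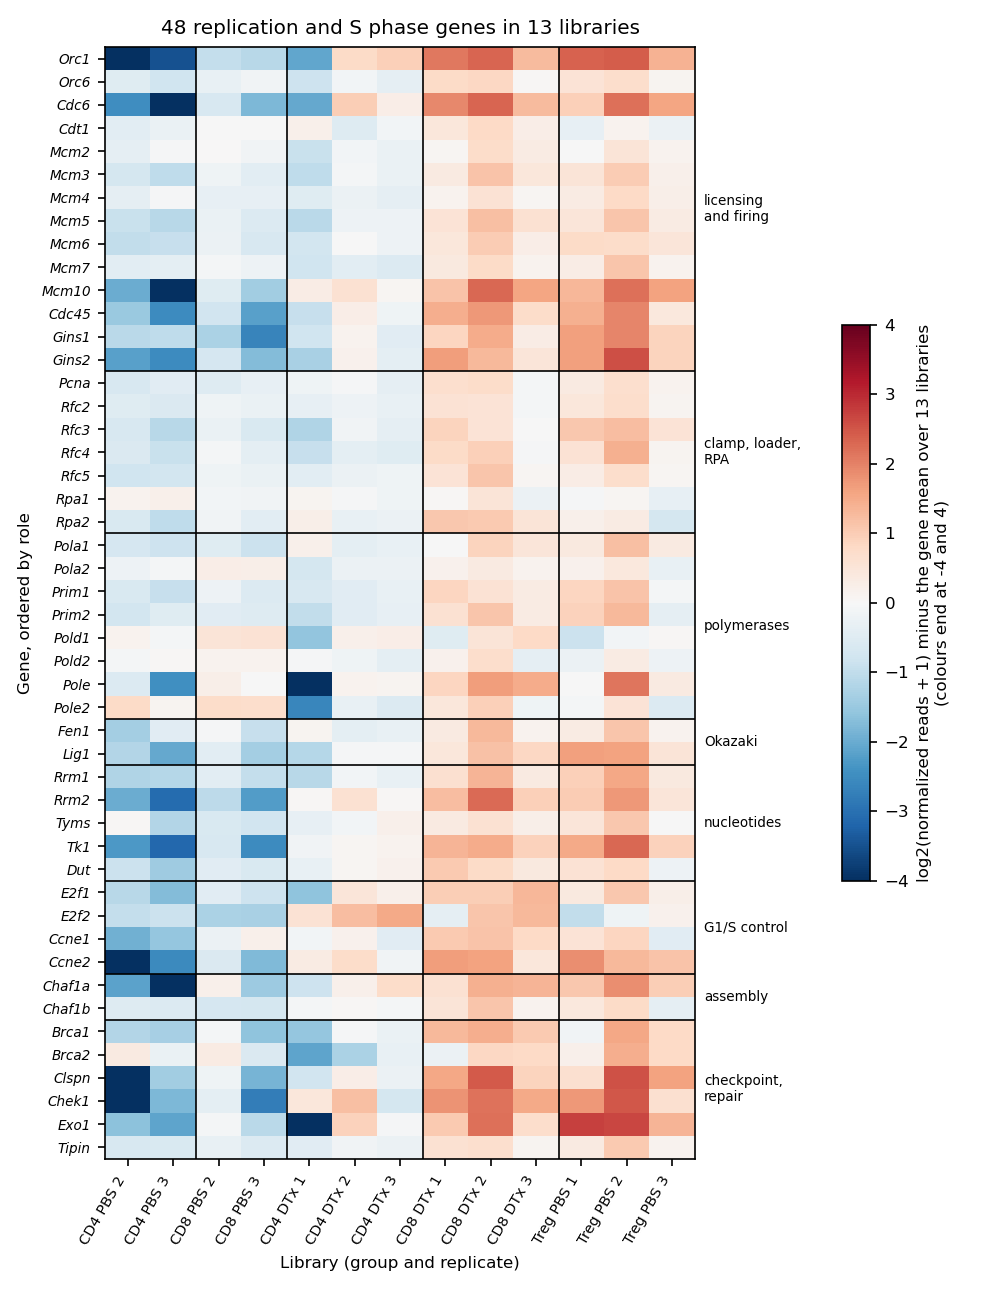
The 48 members (rows, grouped by role) in the 13 libraries (columns). Colour is log2(normalized reads + 1) minus the mean of the gene over all libraries. Treg PBS and CD8 DTx libraries are red for most genes and CD4 PBS libraries blue, with Rpa1, Pold1, Pold2 and Pole2 among the rows that depart from this.

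After Treg cell ablation, CD4 Tconv cells had more transcripts of Orc1, Cdc6 and Mcm10, which prepare and activate origins, of Rrm2, Tk1 and Dut, which supply nucleotides, and of E2f2, Ccne1 and Ccne2, which act at the G1/S boundary. In CD4 DTx against CD4 PBS, 11 of 48 members were called higher and 0 lower (limma, adjusted p under 0.05 over all 12667 genes tested), against 8.64% of all genes called higher. The others were Chaf1a and Chek1. The median log2 fold change over the 48 was 0.50, against -0.04 over all genes tested. With the 4-fold threshold of the study 9 were called, and 5.06% of all genes. In 26 members all 3 CD4 DTx libraries lay above both CD4 PBS libraries, and in 5 all lay below. How many of all genes separated in this way was not counted, so these 2 numbers have no background. The counts below, from fits that left out a library, have none either. Leaving out CD4 PBS replicate 2 left 6 calls and leaving out replicate 3 left 5, and Ccne2 and Mcm10 were called whichever of the 5 libraries was left out.

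In CD8 DTx against CD8 PBS, 17 of 48 members were called higher and 0 lower, with 7.4% of all genes called higher. Beside Cdc6, Rrm2, Tk1, Dut, E2f2 and Ccne2, which were also called in CD4 cells, they were Mcm5, Mcm6, Cdc45, Gins1, Gins2, Pcna, Rpa2, Lig1, Rrm1, Chaf1b and Brca1. The median log2 fold change was 1.15, against -0.03 over all genes tested, and in 42 members all CD8 DTx libraries lay above both CD8 PBS libraries. That separation was not counted over all genes. With the 4-fold threshold 8 were called, and 3.87% of all genes. The counts of the 2 cell types had no fixed order. Scaling to equal totals called 8 in CD8 cells (5.67% of all genes higher) and 10 in CD4 cells (7.58%). A fit of only the groups compared called 0 in CD8 cells (1.09% of all genes higher) and 4 in CD4 cells (5.39%). Calls over all genes were not counted for fits that left out a library. In those fits the CD8 count of members, which has no background there, changed with the library left out. It was 7 without CD8 PBS replicate 2, 0 without CD8 PBS replicate 3, 6 without CD8 DTx replicate 1 and 4 without CD8 DTx replicate 2. No member was called when the change in CD4 cells was tested against the change in CD8 cells (limma, 0 of 48, 0.0474% of all genes in either direction). Of the 48, 3 had an unadjusted p under 0.05 in that test, as did 513 of all 12667 genes tested. For this difference edgeR and DESeq2 also called 0, and the median difference of log2 fold changes was -0.53. A gene called in 1 cell type and not in the other is therefore not shown to respond differently.

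**Figure D3:**
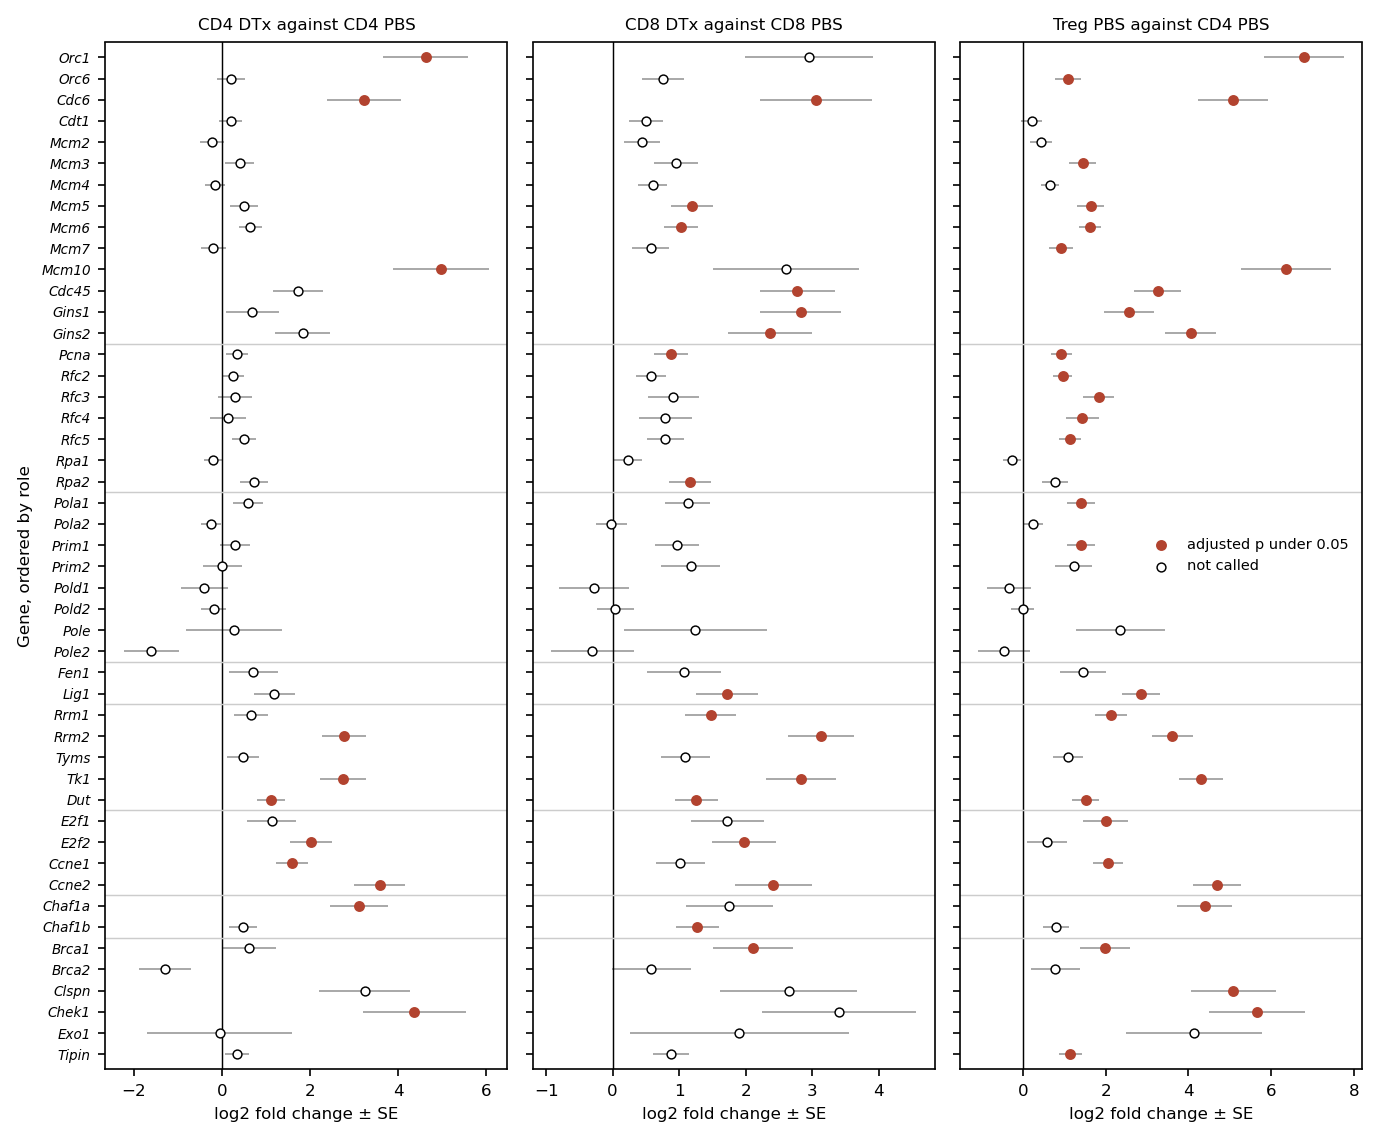
Log2 fold change with its standard error for each member, ordered by role, in CD4 DTx against CD4 PBS, CD8 DTx against CD8 PBS and Treg PBS against CD4 PBS. Filled points have an adjusted p under 0.05 (limma), which are 11, 17 and 31 of the 48 genes, all to the right of 0. The left and right panels share the CD4 PBS libraries.

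The Treg cells of PBS-treated mice carried more replication transcripts than the Tconv cells of the same treatment. In Treg PBS against CD4 PBS, 31 of 48 members were higher and 0 lower, with 13.5% of all genes called higher and a median log2 fold change of 1.44. With the 4-fold threshold 15 were called, and 7.85% of all genes. Leaving out CD4 PBS replicate 2 left 19 calls and replicate 3 left 16, and 14 members were called whichever of the 5 libraries was left out. In Treg PBS against CD8 PBS, 18 members were higher and 0 lower (11.9% of all genes called higher, median 1.01). With the 4-fold threshold 9 were called there, and 6.56% of all genes. The 18 became 11 and 9 without Treg PBS replicates 1 and 2, and 10 and 2 without CD8 PBS replicates 2 and 3. The 18 members were Orc1, Cdc6, Mcm4, Mcm5, Mcm6, Cdc45, Gins1, Gins2, Pcna, Rfc3, Pola1, Lig1, Rrm1, Rrm2, Tyms, Tk1, Ccne2 and Tipin. The comparisons share the Treg PBS libraries, and Treg PBS held the highest melanocyte transcripts. For the fits that left out a library, the share of all genes called was not counted.

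After ablation the median replication gene of CD8 T cells stood near its Treg level, and that of CD4 Tconv cells below it. In CD8 DTx against Treg PBS no member was called (limma, 0 of 48, with 8.6% of all genes called in either direction). An unadjusted p under 0.05 was found for 3 of the 48 and for 2472 of all 12667 genes tested. On recovered reads edgeR called 0, and DESeq2 called 1, Rpa2, higher, as it did 5.35% of all genes. For Mcm5 the log2 fold change was 0.15 (SE 0.28, adjusted p = 0.855 by limma). The median over members was 0.055 and they ranged from -0.94 (Exo1) to 1.02 (E2f2). In CD4 DTx against Treg PBS, 12 members were lower and 0 higher (4.55% of all genes called lower), with a median of -1.07. They were Mcm3, Mcm4, Mcm5, Mcm6, Mcm7, Gins2, Rfc3, Rfc4, Prim1, Lig1, Rrm1 and Brca2, and 2 of them, Gins2 and Brca2, passed 4-fold, as did 2.45% of all genes. Without Treg PBS replicate 1 or 2 the count was 2 and 0, and without CD4 DTx replicate 1 or 3 it was 1 and 5. The counts from fits that left out a library have no share of all genes beside them. The 3 comparisons of CD4 DTx, CD4 PBS and Treg PBS share libraries with each other.

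No replication gene passed by limma between CD8 and CD4 Tconv cells of PBS-treated mice. Between those of DTx-treated mice 1 passed, and 11 did with the replicate number as a block. In CD8 PBS against CD4 PBS no member was called (limma, 0 of 48, 1.08% of all genes in either direction). Of the 48, 7 had an unadjusted p under 0.05, as did 827 of all 12667 genes tested. With edgeR 0 were called, and DESeq2 called 2, Ccne1 and Chaf1a, higher, as it did 2.14% of all genes. The median log2 fold change was 0.49, and without CD4 PBS replicate 2 there was 1 call. In CD8 DTx against CD4 DTx, Mcm5 was called higher and 0 were lower (0.892% of all genes called higher), and the median was 1.07. An unadjusted p under 0.05 was found for 36 of the 48 and for 1443 of all 12667 genes tested. Same-numbered CD4 and CD8 libraries of DTx-treated mice deviated together. With the replicate number as a block, 11 members were called higher, against 1.82% of all genes. These were Mcm2, Mcm3, Mcm5, Mcm6, Mcm7, Cdc45, Rpa2, Rrm1, Rrm2, Brca1 and Brca2. For Mcm5 the log2 fold change was 1.29 (SE 0.28, adjusted p = 0.0443 by limma), and the adjusted p was 0.00529 with the block. Its call without the block was lost whichever of the 6 libraries was left out (limma, adjusted p from 0.0587 to 0.184). In the other roles the smallest adjusted p belonged to Rpa2, Prim1, Lig1, Rrm1, Ccne1, Chaf1b and Brca1, with log2 fold changes from 0.63 to 1.88, none of them called without the block (limma, adjusted p from 0.0999 to 0.434).

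Of the 14 origin licensing and firing genes, 3 were called in CD4 cells after DTx (Orc1, Cdc6 and Mcm10) and 6 in CD8 cells (Cdc6, Mcm5, Mcm6, Cdc45, Gins1 and Gins2). Over all genes, 8.64% were called higher in CD4 DTx against CD4 PBS and 7.4% in CD8 DTx against CD8 PBS. For Treg PBS the shares were 13.5% against CD4 PBS and 11.9% against CD8 PBS, and these shares apply to every role below. Orc1, the ATPase of the origin recognition complex, had the smallest adjusted p of its role in CD4 DTx against CD4 PBS. Orc1 was at 0 and 4.62 normalized reads in CD4 PBS, 14.0, 107 and 121 in CD4 DTx, 31.6 and 28.0 in CD8 PBS, 273, 319.7 and 151 in CD8 DTx and 327, 338 and 164 in Treg PBS. All CD4 DTx libraries lay above both CD4 PBS libraries, but replicate 1 was close to them. The log2 fold change was 4.62 (SE 0.96, adjusted p = 0.00747 by limma), and the call was lost without CD4 PBS replicate 2 (adjusted p = 0.102, limma). In Treg PBS against CD4 PBS it was 6.80 (SE 0.96, adjusted p = 4.69e-04 by limma). A CD4 PBS value of 0 makes this fold depend on the pseudocount of 1, so the size is less firm than the separation. Cdc6 was at 47.8 and 11.2 normalized reads in CD4 PBS, 65.5, 547 and 332 in CD4 DTx, 175 and 78.6 in CD8 PBS, 1036, 1385 and 665 in CD8 DTx and 529, 1278 and 825 in Treg PBS. Cdc6, which recruits the helicase to origins, rose in CD4 cells by 3.23 (SE 0.84, adjusted p = 0.0244 by limma) and in CD8 cells by 3.06 (SE 0.84, adjusted p = 0.0364 by limma) on the log2 scale. Every DTx library was above the libraries of the same cell type given PBS, although CD4 DTx replicate 1 was near CD4 PBS replicate 2. Mcm10, which helps to activate the helicase, was at 38.3 and 0 normalized reads in CD4 PBS and 192, 235 and 165 in CD4 DTx, a log2 fold change of 4.97 (SE 1.09, adjusted p = 0.0104 by limma). The size of this fold also depends on the pseudocount, through the 0 in CD4 PBS replicate 3. The group means were 19.1 in CD4 PBS and 197 in CD4 DTx.

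Cdc45, a partner of the active helicase, led this role in CD8 cells. Cdc45 was at 180.4 and 87.8 normalized reads in CD4 PBS, 267, 608 and 445 in CD4 DTx, 298 and 111 in CD8 PBS, 1394, 1672 and 839.9 in CD8 DTx and 1337, 1961 and 672 in Treg PBS. The CD8 DTx libraries were all above both CD8 PBS libraries, and the log2 fold change was 2.78 (SE 0.57, adjusted p = 0.00924 by limma). Without CD8 PBS replicate 3 its adjusted p was 0.167 (limma). In CD4 cells the log2 fold change was 1.72 and did not pass (limma, adjusted p = 0.0693), with all 3 DTx libraries above both PBS libraries. Gins1, a GINS subunit, was at 36.4 and 13.3 normalized reads in CD8 PBS, 159.8, 248 and 109 in CD8 DTx and 278, 348 and 166 in Treg PBS. It had the smallest adjusted p of its role in Treg PBS against CD8 PBS, with a log2 fold change of 3.45 (SE 0.61, adjusted p = 0.00221 by limma), and kept the call whichever library was left out. Gins2 was at 56.1, 156 and 107 in CD4 DTx and 441, 836 and 261 in Treg PBS and was lower in CD4 DTx by a log2 fold change of -2.22 (SE 0.56, adjusted p = 0.0318 by limma).

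The 6 MCM helicase subunits had log2 fold changes after DTx of -0.22 to 0.64 in CD4 cells, whereas those of CD8 cells were 0.44 to 1.19. Mcm5 was at 2017 and 1723 normalized reads in CD4 PBS, 1746, 3245 and 3209 in CD4 DTx, 3119.9 and 2541 in CD8 PBS, 5412, 8531 and 5719 in CD8 DTx and 5172, 7994 and 4663 in Treg PBS. Mcm5 rose in CD8 cells by 1.19 (SE 0.32, adjusted p = 0.0331 by limma) on the log2 scale, while in CD4 cells its log2 fold change was 0.50 with overlapping libraries (limma, adjusted p = 0.351). Mcm6 was at 4377 and 4602 normalized reads in CD4 PBS, 5273, 8656 and 7569 in CD4 DTx, 7337 and 5552 in CD8 PBS, 11984, 17499.7 and 10485 in CD8 DTx and 14716, 14502 and 12284 in Treg PBS. Mcm6 likewise rose in CD8 cells, by 1.03 (SE 0.26, adjusted p = 0.0265 by limma). Of the 6 subunits, Mcm2, Mcm3, Mcm4 and Mcm7 did not pass in either cell type. Mcm7 was at 2527 and 2585 normalized reads in CD4 PBS, 1941, 2505 and 2311 in CD4 DTx, 3186 and 2905 in CD8 PBS, 4394, 5752 and 3679 in CD8 DTx and 4108, 7326 and 3728 in Treg PBS. Every CD4 DTx library of Mcm7 was below both CD4 PBS libraries and every CD8 DTx library above both CD8 PBS libraries. The log2 fold changes were -0.19 in CD4 cells and 0.57 in CD8 cells (limma, adjusted p = 0.699 and 0.214). Relative to Treg PBS, Mcm7 had the smallest adjusted p of its role and was lower in CD4 DTx by a log2 fold change of -1.11 (SE 0.25, adjusted p = 0.0184 by limma). That call was lost without Treg PBS replicate 2, CD4 DTx replicate 1 or CD4 DTx replicate 3 (limma, adjusted p from 0.0516 to 0.0588). Mcm2 and Mcm4 went against the direction of most members in CD4 DTx against CD4 PBS, with log2 fold changes of -0.22 and -0.15, neither of them called. Cdt1, which loads the helicase with Cdc6, was called in no comparison and ranged from 830.2 to 2060.0 normalized reads over the 13 libraries. In Treg PBS against CD8 PBS its log2 fold change was -0.13. Orc6 was called higher only in Treg PBS against CD4 PBS, by 1.09 (SE 0.32, adjusted p = 0.031 by limma).

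The clamp, clamp loader and single-strand binding genes were 0 of 7 called in CD4 DTx against CD4 PBS, 2 of 7 in CD8 DTx against CD8 PBS and 5 of 7 in Treg PBS against CD4 PBS. With 7 genes, the count of 0 is not shown to lie below the 8.64% of all genes called higher. Rpa2 was at 1678 and 1271 normalized reads in CD4 PBS, 3049, 2096 and 2206 in CD4 DTx, 2356 and 1931 in CD8 PBS, 5514, 5371 and 3696 in CD8 DTx and 2988, 3247 and 1582 in Treg PBS. Rpa2, the middle subunit of replication protein A, had the smallest adjusted p of its role in both DTx comparisons. It rose in CD8 cells by 1.16 (SE 0.32, adjusted p = 0.0344 by limma) on the log2 scale, and the call was lost without either CD8 PBS library or without CD8 DTx replicate 1 or 2 (limma, adjusted p from 0.0953 to 0.291). In CD4 cells all 3 DTx libraries lay above both PBS libraries without passing, at 0.73 (SE 0.32, adjusted p = 0.166 by limma). Pcna, the clamp, was at 2768 and 3171 normalized reads in CD8 PBS and 6384, 6665 and 3759 in CD8 DTx and rose by 0.87 (SE 0.25, adjusted p = 0.0461 by limma). Rfc3 was at 372 and 271 normalized reads in CD4 PBS, 252, 523 and 457 in CD4 DTx, 485 and 381 in CD8 PBS, 1075, 852 and 576 in CD8 DTx and 1234, 1380.1 and 841 in Treg PBS. Rfc3, a clamp loader subunit, was higher in Treg PBS than in CD4 PBS by 1.82 (SE 0.38, adjusted p = 0.0056 by limma) and than in CD8 PBS by 1.39 (SE 0.38, adjusted p = 0.0248 by limma). CD4 DTx was below Treg PBS, at -1.52 (SE 0.34, adjusted p = 0.018 by limma). The call against CD4 PBS was lost without CD4 PBS replicate 3 (limma, adjusted p = 0.0680), the call against CD8 PBS without either CD8 PBS library or Treg PBS replicate 1 or 2 (adjusted p from 0.0715 to 0.198), and the call of CD4 DTx without Treg PBS replicate 1 or 2 (adjusted p = 0.0639 and 0.0799).

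Rpa1, the large subunit of the same complex as Rpa2, did not follow the direction of most members. Rpa1 was at 6048 and 6332 normalized reads in CD4 PBS, 5999, 5319.8 and 4929 in CD4 DTx, 5149 and 5039 in CD8 PBS, 5716, 7846 and 4747 in CD8 DTx and 5329, 5869 and 4384 in Treg PBS. Every CD4 DTx and every Treg PBS library lay below both CD4 PBS libraries, and the CD8 groups overlapped. No Rpa1 comparison passed. The log2 fold changes were -0.20 in CD4 DTx against CD4 PBS, -0.26 in Treg PBS against CD4 PBS and 0.07 in CD4 DTx against Treg PBS (limma, adjusted p = 0.597, 0.409 and 0.899).

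Of the 8 polymerase and primase genes, 0 were called in either DTx comparison, 2 in Treg PBS against CD4 PBS (Pola1 and Prim1) and 1 in Treg PBS against CD8 PBS (Pola1). Over all genes, 8.64% and 7.4% were called higher in the DTx comparisons of CD4 and CD8 cells. With 8 genes, the counts of 0 are not shown to lie below those shares. Prim1 was at 548 and 436 normalized reads in CD4 PBS, 530.2, 609 and 670.3 in CD4 DTx, 724 and 568 in CD8 PBS, 1519.7, 1244 and 1042 in CD8 DTx and 1513, 1829 and 782 in Treg PBS. Prim1, the catalytic primase subunit, was higher in Treg PBS than in CD4 PBS by a log2 fold change of 1.40 (SE 0.34, adjusted p = 0.0118 by limma), a call lost without CD4 PBS replicate 3 (limma, adjusted p = 0.108). CD4 DTx was below Treg PBS, at -1.11 (SE 0.30, adjusted p = 0.0432 by limma). All CD4 DTx libraries lay below all Treg PBS libraries, but that call was lost whichever library but Treg PBS replicate 3 was left out (limma, adjusted p from 0.0801 to 0.172). Pola1 was at 518 and 464 normalized reads in CD4 PBS, 945, 624 and 678 in CD4 DTx, 594 and 453 in CD8 PBS, 819, 1548 and 1158 in CD8 DTx and 1091, 1895 and 1052 in Treg PBS. Pola1, the catalytic subunit of polymerase alpha, came nearest to a call in the CD8 DTx comparison, at 1.13 (SE 0.34, adjusted p = 0.052 by limma). In Treg PBS against CD8 PBS it passed, at 1.32 (SE 0.34, adjusted p = 0.0177 by limma), and lost the call without Treg PBS replicate 2 or either CD8 PBS library (limma, adjusted p from 0.0508 to 0.175).

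The polymerase role also held several members that went against the direction of most. Pole2 was at 574 and 366 normalized reads in CD4 PBS, 54.2, 272 and 229 in CD4 DTx, 556 and 553 in CD8 PBS, 460.1, 661 and 297 in CD8 DTx and 317, 496 and 233 in Treg PBS. Pole2, the second subunit of polymerase epsilon, was below both CD4 PBS libraries in every CD4 DTx library, with a log2 fold change of -1.60 (SE 0.62, adjusted p = 0.12 by limma). It was also below both CD8 PBS libraries in every Treg PBS library, at -0.74 (SE 0.62, adjusted p = 0.427 by limma). Its libraries overlapped in 2 further comparisons, with log2 fold changes of -0.31 in CD8 DTx against CD8 PBS and -0.46 in Treg PBS against CD4 PBS. Pole, the catalytic subunit of the same polymerase, was at 238 and 62.7 normalized reads in CD4 PBS, 21.5, 389.6 and 378 in CD4 DTx and 349, 1551 and 454 in Treg PBS, and CD4 DTx replicate 1 was far below the other libraries of its group. Pold1 was at 1617 and 1364 normalized reads in CD4 PBS, 486, 1687 and 1762 in CD4 DTx, 2091 and 2178 in CD8 PBS, 1044, 2083 and 2510.3 in CD8 DTx and 793, 1351 and 1499 in Treg PBS. Pold1, the catalytic subunit of polymerase delta, was lower in every Treg PBS library than in both CD8 PBS libraries, at -0.87 (SE 0.52, adjusted p = 0.264 by limma). Its log2 fold changes were -0.39, -0.28 and -0.34 in CD4 DTx against CD4 PBS, CD8 DTx against CD8 PBS and Treg PBS against CD4 PBS. Pold2, its partner, had log2 fold changes of -0.18 in CD4 DTx against CD4 PBS, -0.01 in Treg PBS against CD4 PBS and -0.16 in Treg PBS against CD8 PBS. Pola2, the regulatory subunit of polymerase alpha, had log2 fold changes of -0.25 in CD4 DTx against CD4 PBS, -0.02 in CD8 DTx against CD8 PBS and -0.15 in Treg PBS against CD8 PBS. None of these 5 genes was called in any of the 9 comparisons.

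Lig1, the ligase that seals Okazaki fragments, was the member of its role with the smallest adjusted p in each comparison. Lig1 was at 403 and 219 normalized reads in CD4 PBS, 408, 875 and 867 in CD4 DTx, 667 and 351 in CD8 PBS, 1244, 2023 and 1614 in CD8 DTx and 2837, 2736 and 1291 in Treg PBS. The Treg PBS libraries were all above the PBS-treated Tconv libraries, and CD4 DTx replicate 1 lay just above CD4 PBS replicate 2. Lig1 rose in CD8 cells by 1.72 (SE 0.47, adjusted p = 0.0343 by limma) on the log2 scale, and was higher in Treg PBS than in CD4 PBS by 2.86 (SE 0.47, adjusted p = 0.00111 by limma) and than in CD8 PBS by 2.15 (SE 0.47, adjusted p = 0.00729 by limma). In CD4 cells the change was 1.18 (SE 0.47, adjusted p = 0.124 by limma) and did not pass, and CD4 DTx was lower than Treg PBS, at -1.67 (SE 0.42, adjusted p = 0.0291 by limma). The CD8 call was lost without CD8 PBS replicate 3 or CD8 DTx replicate 1 or 2 (limma, adjusted p from 0.0526 to 0.356). The call of Treg PBS against CD8 PBS was lost without CD8 PBS replicate 3 (limma, adjusted p = 0.116). The CD4 DTx against Treg PBS call was lost without Treg PBS replicate 1 or 2 or CD4 DTx replicate 1 (limma, adjusted p from 0.0825 to 0.116). Fen1, the flap nuclease, was called in none of the 9 comparisons and had log2 fold changes of 0.71 in CD4 cells and 1.07 in CD8 cells, with all DTx libraries above the PBS libraries in both.

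Of the nucleotide supply genes, 3 of 5 were called in CD4 cells after DTx (Rrm2, Tk1, Dut), 4 of 5 in CD8 cells and 4 of 5 in each comparison of Treg PBS with PBS-treated Tconv cells. Rrm2 was at 547 and 256 normalized reads in CD4 PBS, 2227, 3298 and 2252 in CD4 DTx, 1059 and 459 in CD8 PBS, 5099.6, 10499 and 4248 in CD8 DTx and 4373, 7202 and 3035 in Treg PBS. Rrm2, the subunit of ribonucleotide reductase that is tied to S phase, rose in CD4 cells by 2.76 (SE 0.50, adjusted p = 0.00306 by limma) and in CD8 cells by 3.13 (SE 0.50, adjusted p = 0.00247 by limma) on the log2 scale. All DTx libraries lay above all PBS libraries of their cell type. Without replicate 3 of the PBS group the adjusted p was 0.0601 in CD4 cells and 0.0596 in CD8 cells (limma). Tk1 was at 86.1 and 47.6 normalized reads in CD4 PBS, 388, 451 and 471 in CD4 DTx, 275 and 74.6 in CD8 PBS, 1111, 1188 and 813 in CD8 DTx and 1230.3, 2124 and 815 in Treg PBS. Tk1, the thymidine kinase of S phase, had the smallest adjusted p of its role in Treg PBS against CD4 PBS, at 4.31 (SE 0.53, adjusted p = 1.86e-04 by limma), and against CD8 PBS, at 3.16 (SE 0.53, adjusted p = 0.00169 by limma). Both calls held whichever library was left out. Tk1 also rose after DTx, by 2.75 in CD4 cells and 2.83 in CD8 cells on the log2 scale (limma, adjusted p = 0.00476 and 0.00574).

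Rrm1, the large reductase subunit, was called after DTx in CD8 cells and not in CD4 cells. Rrm1 was at 1781 and 1857 normalized reads in CD4 PBS, 1884, 3753 and 3351 in CD4 DTx, 3037 and 2109 in CD8 PBS, 6338, 10387 and 5280.4 in CD8 DTx and 7884, 11885 and 5309 in Treg PBS. In CD4 cells its log2 fold change was 0.66 and did not pass (limma, adjusted p = 0.305), and in CD8 cells it rose by 1.47 (SE 0.39, adjusted p = 0.0305 by limma). CD4 DTx was below Treg PBS, at -1.46 (SE 0.35, adjusted p = 0.0229 by limma), a call lost without Treg PBS replicate 1 or 2 or CD4 DTx replicate 1 (limma, adjusted p from 0.0669 to 0.102). Whether Rrm1 and Rrm2 differed from each other was not tested. Dut, which removes dUTP, rose by 1.11 (SE 0.32, adjusted p = 0.0416 by limma) in CD4 cells and 1.26 (SE 0.32, adjusted p = 0.0277 by limma) in CD8 cells. Tyms, thymidylate synthase, was called only in Treg PBS against CD8 PBS, at 1.21 (SE 0.36, adjusted p = 0.0376 by limma).

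All 4 G1/S control genes had positive log2 fold changes after DTx in both cell types, and 3 passed in CD4 cells (E2f2, Ccne1, Ccne2) and 2 in CD8 cells (E2f2, Ccne2). Ccne2 was at 10.9 and 31.0 normalized reads in CD4 PBS, 235, 314 and 173 in CD4 DTx, 125 and 54.7 in CD8 PBS, 606, 573 and 256 in CD8 DTx and 679, 459 and 412 in Treg PBS. Ccne2 had the smallest adjusted p of its role in 4 comparisons. It rose by 3.58 (SE 0.58, adjusted p = 0.00161 by limma) in CD4 cells and by 2.42 (SE 0.58, adjusted p = 0.02 by limma) in CD8 cells on the log2 scale, and in Treg PBS it was higher than in CD4 PBS by 4.69 (SE 0.58, adjusted p = 1.90e-04 by limma) and than in CD8 PBS by 2.59 (SE 0.58, adjusted p = 0.00879 by limma). The 2 comparisons with CD4 PBS kept the call whichever library was left out. The CD8 DTx call was lost without CD8 PBS replicate 3 or CD8 DTx replicate 1 or 2 (limma, adjusted p from 0.0716 to 0.259), and the Treg PBS against CD8 PBS call without CD8 PBS replicate 3 (limma, adjusted p = 0.130). Ccne1 was at 167 and 215 normalized reads in CD4 PBS, 583, 707 and 464 in CD4 DTx, 533 and 728 in CD8 PBS, 1309, 1400.3 and 1090.3 in CD8 DTx and 925, 1142 and 461 in Treg PBS. Ccne1 rose in CD4 cells by 1.60 (SE 0.37, adjusted p = 0.0127 by limma). In CD8 cells its log2 fold change was 1.01 and did not pass (limma, adjusted p = 0.0996), with all DTx libraries above both PBS libraries. Both CD8 PBS libraries lay above both CD4 PBS libraries, a difference called by DESeq2 and not by limma. Whether that level bears on the CD8 result was not tested. Ccne1 had the smallest adjusted p of its role in CD8 DTx against CD4 DTx, at 1.13 (SE 0.33, adjusted p = 0.135 by limma).

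E2f2 had its highest group mean in CD4 DTx. E2f2 was at 368 and 392 normalized reads in CD4 PBS, 1072, 1682 and 2036 in CD4 DTx, 296 and 289 in CD8 PBS, 554, 1558 and 1761 in CD8 DTx and 358, 635 and 801 in Treg PBS. It rose by 2.02 (SE 0.48, adjusted p = 0.016 by limma) in CD4 cells and 1.97 (SE 0.48, adjusted p = 0.0225 by limma) in CD8 cells, and all DTx libraries lay above the PBS libraries of their cell type. In Treg PBS it was not called against CD4 PBS, at 0.58 (SE 0.48, adjusted p = 0.415 by limma), with overlapping libraries. Every CD4 DTx library lay above every Treg PBS library, at 1.44 (SE 0.43, adjusted p = 0.0619 by limma), which did not pass here, although E2f2 was called higher in CD4 DTx with the replicate number as a block and by DESeq2. E2f2 was also the only member whose log2 fold change in CD8 DTx against CD4 DTx was below 0, at -0.42 (SE 0.43, adjusted p = 0.843 by limma), again with overlap. E2f1 was called only in Treg PBS against CD4 PBS, at 1.99 (SE 0.55, adjusted p = 0.0231 by limma), and had log2 fold changes of 1.13 in CD4 cells and 1.72 in CD8 cells after DTx.

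**Figure D4:**
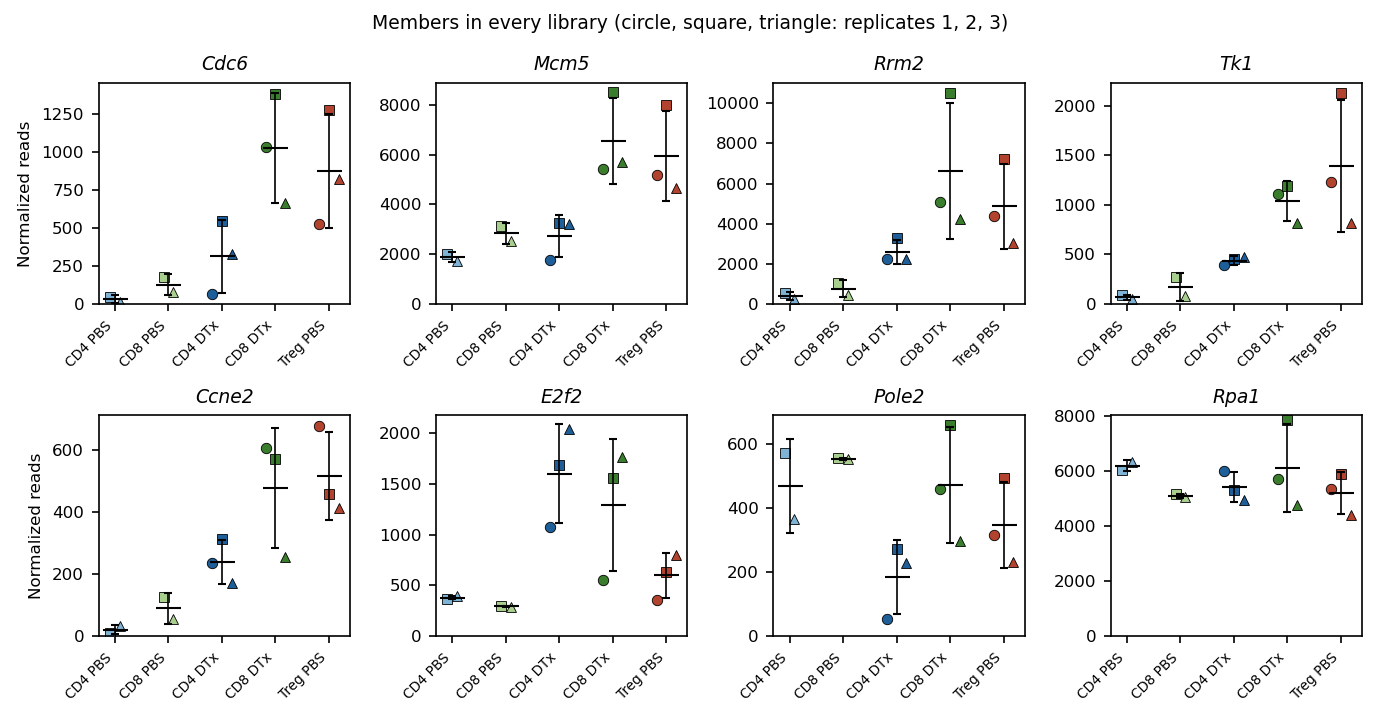
Normalized reads of 8 members in every library, with the mean and SD of each group. Cdc6, Rrm2, Tk1 and Ccne2 are lowest in CD4 PBS and highest in CD8 DTx or Treg PBS. E2f2 is highest in CD4 DTx, Pole2 is lowest in CD4 DTx, and Rpa1 shows a similar level in all groups.

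Each chromatin assembly gene was called after DTx in 1 cell type. Chaf1a was at 76.5 and 19.8 normalized reads in CD4 PBS, 189.8, 389.6 and 562 in CD4 DTx, 388 and 123 in CD8 PBS, 512, 908 and 864 in CD8 DTx and 722, 1226 and 672 in Treg PBS. Chaf1a, the large subunit of the histone chaperone, rose in CD4 cells by 3.11 (SE 0.66, adjusted p = 0.00795 by limma) on the log2 scale, a call lost without CD4 PBS replicate 3 (limma, adjusted p = 0.128). Treg PBS was higher than CD4 PBS by 4.39 (SE 0.66, adjusted p = 6.34e-04 by limma), while Treg PBS against CD8 PBS did not pass, at 1.94 (SE 0.66, adjusted p = 0.058 by limma). CD4 DTx against Treg PBS was not called either, at -1.28 (SE 0.59, adjusted p = 0.232 by limma), with all CD4 DTx libraries below all Treg PBS libraries. Chaf1b was at 998 and 958 normalized reads in CD4 PBS, 1332, 1449 and 1326 in CD4 DTx, 886 and 870.4 in CD8 PBS, 2007, 3042 and 1563 in CD8 DTx and 1897, 2377 and 1090.1 in Treg PBS. Chaf1b, its partner, rose in CD8 cells by 1.27 (SE 0.32, adjusted p = 0.0268 by limma) and was called in no other comparison. That call was lost without either CD8 PBS library or without CD8 DTx replicate 1 or 2 (limma, adjusted p from 0.0589 to 0.204).

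Checkpoint and repair genes were called in 1 of 6 cases in each DTx comparison, Chek1 in CD4 cells and Brca1 in CD8 cells, and in 4 of 6 in Treg PBS against CD4 PBS. With 6 genes, the 1 call per DTx comparison is not shown to exceed the 8.64% and 7.4% of all genes called higher there. Chek1 was at 0 and 21.8 normalized reads in CD4 PBS, 108, 181 and 47.4 in CD4 DTx, 59.5 and 10.7 in CD8 PBS, 275, 353 and 227 in CD8 DTx and 262, 439.8 and 121 in Treg PBS. Chek1, the checkpoint kinase, rose in CD4 cells by 4.37 (SE 1.16, adjusted p = 0.0274 by limma) on the log2 scale. The 0 in CD4 PBS replicate 2 makes the size of this fold depend on the pseudocount. The call was lost without CD4 PBS replicate 2 or CD4 DTx replicate 1 or 2 (limma, adjusted p from 0.0576 to 0.299). Brca1 was at 113 and 101 normalized reads in CD4 PBS, 87.0, 245 and 211 in CD4 DTx, 243 and 82.6 in CD8 PBS, 621, 696 and 532 in CD8 DTx and 229, 753 and 447 in Treg PBS. Brca1, a repair factor, rose in CD8 cells by 2.10 (SE 0.60, adjusted p = 0.0435 by limma), a call lost without CD8 PBS replicate 3 or CD8 DTx replicate 1 or 2 (limma, adjusted p from 0.103 to 0.428). Clspn was at 2.73 and 67.4 normalized reads in CD4 PBS, 105, 213 and 151 in CD4 DTx, 159 and 48 in CD8 PBS, 525, 978 and 329.8 in CD8 DTx and 279, 1048 and 549 in Treg PBS. Its 2.73 in CD4 PBS replicate 2 lay under the floor of 3 reads, so the size of its fold against CD4 PBS depends on the pseudocount. Clspn, the adaptor that activates Chek1, was higher in Treg PBS than in CD4 PBS by 5.09 (SE 1.03, adjusted p = 0.00456 by limma), which became 0.0529 in adjusted p without CD4 PBS replicate 2 (limma). Tipin, a fork protection factor, was at 1431 and 1204 normalized reads in CD8 PBS and 2227, 3601 and 1916 in Treg PBS, at 0.92 (SE 0.27, adjusted p = 0.0326 by limma), and lost that call without either CD8 PBS library or Treg PBS replicate 1 or 2 (limma, adjusted p from 0.0525 to 0.238). Brca2 was at 289.7 and 185 normalized reads in CD4 PBS, 50.5, 92.0 and 180.4 in CD4 DTx, 279 and 151 in CD8 PBS, 191, 395 and 385 in CD8 DTx and 257, 619.6 and 391 in Treg PBS. Brca2, which loads the recombinase at broken forks, was below both CD4 PBS libraries in every CD4 DTx library, at -1.28 (SE 0.59, adjusted p = 0.191 by limma). Against Treg PBS it was lower in CD4 DTx, at -2.06 (SE 0.53, adjusted p = 0.034 by limma), a call lost without Treg PBS replicate 2 or 3 or CD4 DTx replicate 1 or 2 (limma, adjusted p from 0.0781 to 0.140). Exo1 was at 31.4 and 22.5 normalized reads in CD4 PBS, 0, 192 and 97.4 in CD4 DTx, 94.8 and 46.7 in CD8 PBS, 207, 464 and 166 in CD8 DTx and 678, 639 and 259 in Treg PBS. Exo1, an exonuclease, was at -0.05 on the log2 fold change scale in CD4 cells with an SE of 1.65, and the 0 in CD4 DTx replicate 1 enters that value. Without this library the log2 fold change was 2.32 and passed (limma, adjusted p = 0.0471).

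Other genes of the cell cycle were counted from lists chosen by function, to set the members beside the rest of the pathway. Of 43 other replication factors, 8 were higher and 1 lower in CD4 DTx against CD4 PBS, where 8.64% of all genes were higher and 4.08% lower. In CD8 DTx against CD8 PBS 9 were higher and 0 lower, against 7.4% and 3.47% of all genes. The medians were 0.12 and 0.36. The 3 with the smallest adjusted p in CD4 cells were Hells (log2 fold change 2.05), Uhrf1 (2.18) and Asf1b (1.95), which act in chromatin behind the fork. In CD8 cells they were Asf1b (2.22), Hells (1.64) and Gmnn (1.89), the inhibitor of Cdt1. Timeless, the partner of Tipin, was called against the list in CD4 cells. It was at 1017 and 1236 normalized reads in CD4 PBS and 466, 460.1 and 288 in CD4 DTx, a log2 fold change of -1.50 (SE 0.42, adjusted p = 0.0349 by limma). In Treg PBS against CD4 PBS 16 were higher and 1 lower (13.5% and 6.91% of all genes), and against CD8 PBS 10 and 1 (11.9% and 6.75%). The lower gene was Atrip, a checkpoint partner of the Atr kinase, at -1.07 (SE 0.32, adjusted p = 0.0363 by limma) and -1.12 (SE 0.32, adjusted p = 0.0314 by limma). In CD4 DTx against Treg PBS, Bard1, the partner of Brca1, was lower, at -2.59 (SE 0.70, adjusted p = 0.0426 by limma).

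Most of the 20 mitosis genes were called in the same comparisons. In CD4 DTx against CD4 PBS 16 of 20 were higher and 0 lower with a median log2 fold change of 3.22, and in CD8 DTx against CD8 PBS 19 of 20 with a median of 3.22, where 8.64% and 7.4% of all genes were higher. All 20 were higher in Treg PBS than in CD4 PBS (median 4.57, 13.5% of all genes) and than in CD8 PBS (median 3.24, 11.9% of all genes). Ccnb2, the mitotic cyclin, was among the 3 with the smallest adjusted p in all 4 comparisons. Ccnb2 was at 122 and 61.4 normalized reads in CD4 PBS, 1154, 1314 and 949 in CD4 DTx, 509 and 137 in CD8 PBS, 2541, 4591 and 1743 in CD8 DTx and 2657, 3993 and 1655 in Treg PBS. Its log2 fold change was 3.69 (SE 0.56, adjusted p = 0.00111 by limma) in CD4 cells and 3.36 (SE 0.56, adjusted p = 0.00337 by limma) in CD8 cells. Aurkb and Cenpe, which act at the centromere, had log2 fold changes of 4.01 and 6.23 in CD4 cells, and Plk1 and Cdk1, both mitotic kinases, 3.36 and 3.95 in CD8 cells. In CD4 DTx against Treg PBS Cdc20 was lower, at -1.67 (SE 0.41, adjusted p = 0.027 by limma), and the median of the list was -1.49. In CD8 DTx against Treg PBS 0 were called (limma, 0 at an unadjusted p under 0.05, against 2472 of all 12667 genes tested), with a median of -0.05. The difference between this list and the replication genes was not tested.

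Of the G1 cyclins, kinases, inhibitors and RB family genes, 21 of 24 were in the table. Of these, 7 were higher and 1 lower in CD4 DTx against CD4 PBS, against 8.64% and 4.08% of all genes. In CD8 DTx against CD8 PBS 5 were higher and 1 lower, against 7.4% and 3.47%. The higher genes with the smallest adjusted p held several inhibitors of the cycle. Cdkn1a was at 98.4 and 239 normalized reads in CD4 PBS, 1229.7, 694 and 699 in CD4 DTx, 123 and 244 in CD8 PBS, 819, 671 and 705 in CD8 DTx and 721, 846 and 1117 in Treg PBS. Cdkn1a, which encodes the inhibitor p21, rose in CD4 cells by 2.45 (SE 0.43, adjusted p = 0.00279 by limma) on the log2 scale. Cdkn2b, an inhibitor of Cdk4 and Cdk6, was at 2.73 and 3.96 normalized reads in CD4 PBS and 58.0, 141 and 75.1 in CD4 DTx, a log2 fold change of 4.32 (SE 0.77, adjusted p = 0.00286 by limma), and in CD8 cells it was 3.68 (SE 0.77, adjusted p = 0.00987 by limma). E2f8, a repressor of E2F targets, was at 0 in both CD4 PBS libraries and at 72.9, 322 and 128 in CD4 DTx, and passed (limma, adjusted p = 0.00328). Cdkn2c rose in CD8 cells by 2.02 (SE 0.36, adjusted p = 0.00451 by limma). Ccnd3 was at 7109 and 7572 normalized reads in CD4 PBS, 17269, 18102 and 12994 in CD4 DTx, 7011 and 6982 in CD8 PBS, 17194, 22261 and 11862 in CD8 DTx and 6861, 6768 and 5839 in Treg PBS. Ccnd3, a D-type cyclin, rose in CD4 cells by 1.12 (SE 0.25, adjusted p = 0.0106 by limma) and in CD8 cells by 1.24 (SE 0.25, adjusted p = 0.0078 by limma), and was higher than in Treg PBS in both CD4 DTx, at 1.30 (SE 0.22, adjusted p = 0.00388 by limma), and CD8 DTx, at 1.36 (SE 0.22, adjusted p = 0.00229 by limma). Myc was at 1980.2 and 6068 normalized reads in CD4 PBS, 713, 838 and 1015 in CD4 DTx, 3308 and 8323 in CD8 PBS, 1541, 1717 and 1268 in CD8 DTx and 1380.2, 2549 and 1954 in Treg PBS. Myc, a transcription factor of growth, fell in CD4 cells, with a log2 fold change of -2.03 (SE 0.46, adjusted p = 0.0125 by limma), and in CD8 cells, at -1.81 (SE 0.46, adjusted p = 0.0277 by limma). The PBS libraries of replicate 3 were above those of replicate 2, and every DTx library was below both.

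**Figure D5:**
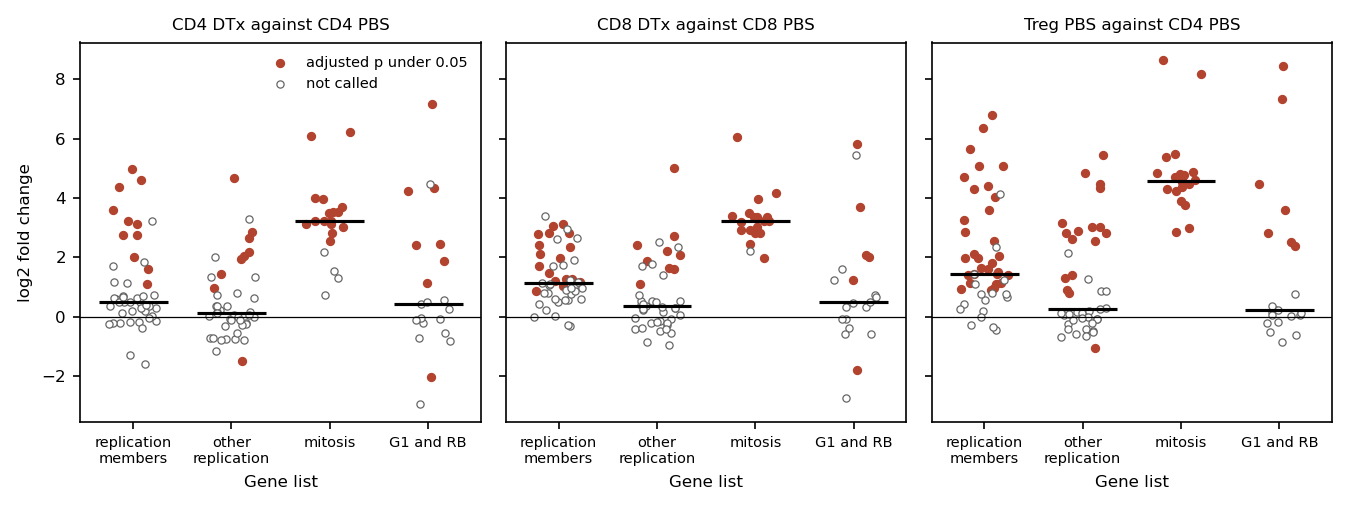
Log2 fold changes of the 48 members and of the 3 related lists in CD4 DTx against CD4 PBS, CD8 DTx against CD8 PBS and Treg PBS against CD4 PBS. Each point is a gene, filled where the adjusted p was under 0.05 (limma), and lines are medians. The mitosis list sits highest in every panel, with medians of 3.22, 3.22 and 4.57.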

How the data were processed

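T cells were sorted from dissociated tumors by flow cytometry, with EGFP as the mark of Foxp3 expression, and cDNA was made with a SMART-type full-length method. Per the methods of the study, the authors trimmed reads with Cutadapt, checked them with FastQC, aligned them with hisat2 to NCBIM37 (mm9), kept uniquely mapped reads and scaled them against intergenic reads. The counting tool and any use of strand were not given in the sources used here, so overlapping genes on opposite strands cannot be told apart. The deposited values are a signal, reads per gene divided by a size factor of the library, here called normalized reads. Division by the step between low values gave whole reads for 100% of values (tolerance 0.01), so counts could be recovered from the deposited signal. Totals were 15947556 to 34140486 reads, and 3 reads, a floor that covers counting error only, came to 1.98 to 4.10 normalized reads. Of 12963 genes, 21 rows bore dates in place of symbols and 53 genes were at 0 throughout.

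Groups followed the labels. The 12667 genes that reached 10 normalized reads in 2 or more libraries, all 48 members among them, were tested on log2(normalized reads + 1) with limma 3.58.1 in R 4.3.3, with 1 mean per group over all 13 libraries and a shared spread. On this scale the pseudocount shrinks the fold of low genes, but a library at or near 0 can raise it above the ratio of group means. In Treg PBS against CD4 PBS the fold of Mcm10 was 81.8 and its ratio of means 27.6. For Orc1 they were 111.1 and 119. Adjusted p is that of Benjamini and Hochberg over all genes tested, and a gene was called where it was under 0.05. The study describes the libraries of a group as biological replicates, but which animals they came from is not known, and p-values measure only the spread between libraries. Alternatives were pseudocounts of 0.5 and 10, no filter on low values, TMM and total scaling, edgeR 4.0.16 and DESeq2 1.42.0 on the recovered reads, the 4-fold threshold of the study, a fit of only the groups compared, the replicate number as a block, and leaving out each library. Where a group was left with 1 library, that library was assumed to vary like the others. Calls over all genes were not counted for the fits that left out a library. Same-numbered CD4 DTx and CD8 DTx libraries deviated from their group means together (r = 0.36, 0.21 and 0.59 across 12667 genes, and 6 of 6 libraries correlated best with their own number), so the numbers were taken to pair these groups. The study describes replicates as isolated on separate days, but neither it nor the labels state that a number marks the same day in every group, so this pairing comes from the data.

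The members and lists were chosen with earlier results of these data known. In each comparison full statistics are given for the member with the smallest adjusted p in each role and for members against the direction of most, and from the related lists for the 3 smallest adjusted p and those called against the list. Further members were named for their values. Scripts were tested on simulated data with known changes. A larger share of false calls was accepted there for DESeq2 than for limma and edgeR, so its calls are not shown to have the same error rate. The values of some genes of the related and marker lists are not reported here.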

Additional observations from a re-analysis of the deposited data

Results flagged for a closer look

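Mcm7, a subunit of the replicative helicase, had log2 fold changes of opposite sign after DTx in the 2 cell types, neither of them called. All 3 CD4 DTx libraries lay below both CD4 PBS libraries and all 3 CD8 DTx libraries lay above both CD8 PBS libraries. How often this occurs over all genes was not counted. The change in CD4 cells minus that in CD8 cells was -0.76 on the log2 scale, which did not pass in the test of the difference itself (limma, adjusted p = 1). No group held enough libraries for a test of single libraries that stand apart.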

How the results depend on the processing

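Over the 48 members, 9 comparisons and all alternative fits, 181 of 6384 log2 fold changes turned sign, and in 1 of these a call was involved. This was Exo1 in CD4 DTx against CD4 PBS, which went from -0.05 to 2.32 without CD4 DTx replicate 1 (limma, adjusted p = 0.0471). Of the log2 fold changes followed for the members with the smallest adjusted p in each role, 604 stayed on their side of the threshold, 111 lost a call and 21 gained one. The 4-fold threshold left 8 members in CD8 DTx against CD8 PBS, 15 and 9 in Treg PBS against CD4 PBS and CD8 PBS, 2 in CD4 DTx against Treg PBS and 0 in CD8 DTx against CD4 DTx. DESeq2 called 28 members higher in CD8 DTx against CD8 PBS (11% of all genes higher) and 28 in Treg PBS against CD8 PBS (14.3%). It called 20 in CD4 DTx against Treg PBS, 19 of them lower (6.82% of all genes lower) and E2f2 higher (5.43% higher). It called 13 higher in CD8 DTx against CD4 DTx (2.33%), 1 in CD8 DTx against Treg PBS (5.35%) and 2 in CD8 PBS against CD4 PBS (2.14%). By edgeR 0 were called in CD8 DTx against CD4 DTx (0.513% of all genes higher). A fit of only the groups compared had fewer samples behind the spread. It called 4 in CD4 DTx against CD4 PBS (5.39% of all genes higher) and 0 in CD8 DTx against CD8 PBS (1.09%). It also called 0 in CD4 DTx against Treg PBS (3% of all genes lower) and in CD8 DTx against CD4 DTx (0.395% higher). Scaling to equal totals called 8 in CD8 DTx against CD8 PBS (5.67% of all genes higher) and 0 in CD8 DTx against CD4 DTx (0.774%). That scaling moved the median of all genes to -0.175 in CD4 DTx against CD4 PBS, -0.227 in CD8 DTx against CD8 PBS and -0.109 in CD8 DTx against Treg PBS. The median of the members under it was 0.358 and 0.944 in the first 2. In CD8 cells it also moved the share of higher genes among all called genes from 68.0% (937 higher, 440 lower) to 52.2% (718 higher, 657 lower). The cause of these differences was not tested.

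With the replicate number as a block, 15 members were called higher in CD4 DTx against CD4 PBS (10.7% of all genes higher), 25 in CD8 DTx against CD8 PBS (9.75%), 37 in Treg PBS against CD4 PBS (16.2%) and 29 in Treg PBS against CD8 PBS (14.4%). A total of 23 were called in CD4 DTx against Treg PBS, 22 lower (7.65% of all genes lower) and E2f2 higher (6.08% higher). The block called E2f2 and Rpa2, 2 members, higher in CD8 DTx against Treg PBS (5.79%) and 11 higher in CD8 DTx against CD4 DTx (1.82%). Apart from the last, the numbers were not shown to pair the groups. Between same-numbered libraries r was -0.31 to 0.08 for DTx against PBS within a cell type. It was 0.06 to 0.12 for Treg PBS against the PBS-treated Tconv groups and 0.19 for CD8 PBS against CD4 PBS. For the DTx groups against Treg PBS it was 0.01 to 0.30, with 4 of 6 libraries in each comparison correlating best with their own number. Leaving out each library in turn gave 5 to 15 calls in CD4 DTx against CD4 PBS, 0 to 21 in CD8 DTx against CD8 PBS, 16 to 35 and 2 to 22 in Treg PBS against CD4 PBS and CD8 PBS, 0 to 14 in CD4 DTx against Treg PBS, 0 to 1 in CD8 DTx against Treg PBS and in CD8 PBS against CD4 PBS, and 0 to 3 in CD8 DTx against CD4 DTx. These counts have no background, since calls over all genes were not counted in those fits. In genes near the floor of 3 reads, such as Orc1, Mcm10, Chek1 and Clspn in CD4 PBS, depth limits the size of a fold change.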
